A study of Mus musculus with 18 samples.

Results

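The genes described here are 45 genes of DNA replication and of the entry into S phase, the phase of the cell cycle in which DNA is copied. They were found by gene symbol in a table of raw RNA-seq counts, where all 45 of 45 had a line, out of 24062 lines. C57BL/6 mice gave hippocampus at P45, and C57BL/6 embryos at E13.5 gave cortex and the MGE, the medial ganglionic eminence of the ventral forebrain. From each came 3 libraries of Chd2+/- mice (HET), which carry a heterozygous loss of the chromatin remodeller Chd2, and 3 libraries of wild-type mice (WT). The 6 groups are therefore hippocampus HET, hippocampus WT, MGE HET, MGE WT, cortex HET and cortex WT, 18 libraries in all. No other allele, driver line or treatment is named in the labels, nor whether replicates come from separate animals or pools. The p-values therefore measure the spread between these libraries, which may be technical in part.

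Before a cell divides, origins of replication are licensed in G1. The origin recognition complex (Orc1 and Orc6 are subunits), Cdc6 and Cdt1 load the ring of Mcm2 to Mcm7 onto DNA, and geminin (Gmnn) blocks Cdt1 once S phase has begun. Cdc45 and the GINS complex then join the ring to make the active helicase, polymerase alpha with primase lays down primers, and polymerases delta and epsilon extend them behind the sliding clamp Pcna. Cyclin E and the E2F transcription factors set this programme going. In the embryonic forebrain many progenitors along the ventricles are in cycle, whereas in the adult hippocampus division is largely limited to the neural stem cells of the dentate gyrus and to glial precursors.

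The libraries held 26841671 to 38802765 counts. Levels are given in CPM, counts relative to library size after scaling all 18 libraries together by TMM (trimmed mean of M values). Marker genes followed the labelled tissues: Nkx2-1, which specifies the MGE, had 914, 914 and 952 CPM in MGE HET libraries and 789, 841 and 879 CPM in MGE WT libraries, and Emx1, of the dorsal forebrain, had 183, 161 and 119 CPM in cortex HET libraries and 114, 145 and 119.5 CPM in cortex WT libraries. Nkx2-1 was at most 1.55 CPM in cortex and Emx1 at most 0.722 CPM in MGE, and Camk2a, of mature excitatory neurons, was at least 5298 CPM in hippocampus, against at most 57.9 CPM in the embryonic tissues. Chd2 was lower in HET libraries in every tissue without overlap, at 139, 136 and 145 CPM in HET against 154, 161 and 175 CPM in WT libraries of MGE, 125, 125 and 125 CPM in HET against 143, 154 and 145 CPM in WT libraries of cortex, and 63.8, 66.6 and 65.6 CPM in HET against 73.4, 69.8 and 78.1 CPM in WT libraries of hippocampus. All 3 MGE HET libraries carried Y-linked transcripts and all 3 MGE WT libraries carried Xist, so genotype and these sex-linked transcripts cannot be told apart in MGE. In cortex, HET 1, HET 3 and WT 1 carried Y-linked transcripts and the others Xist, so the 3 libraries of a cortex group did not all come from 1 animal. In hippocampus all 6 libraries carried Xist. Cortex HET 1 and HET 2 stood apart from the other 4 cortex libraries, which bears on every HET cortex value.

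The labels do not say whether counting kept the strand, so reads from a gene and one overlapping it cannot be told apart. GENCODE M21 exons of another gene overlap 78.8% of the exon length of Fen1 (the antisense Gm10143), 67.3% of Gins2 (Gse1), 52.5% of Chaf1a (Ubxn6), 17.4% of Ccne2 (Ints8) and 15.1% of Rfc2 (Lat2). Overlaps were smaller for Rfc4 at 12.65% (Eif4a2), Orc1 at 10.81% (Gm12743) and Rfc5 at 10.69% (Wsb2). They were 8.50% or less per overlapping gene for Pole2, Mcm7, Orc6, Cdc45, Lig1, Tk1, Rpa1 and Pole. Values of all these genes are uncertain for that reason.

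E2F factors bind a short DNA motif in the promoters of many replication genes, so the promoters of the genes described here were searched for it. RefSeq promoter windows (GRCm38.p6, 250 bases before to 50 after each start) were held for 36 of the 45 genes. The motif TTTCGCGC or TTTGGCGC, on either strand, stood in the windows of 11 of these 36 (30.6%), against 251 of all 27025 genes with a window (0.929%). The 27025 genes were not matched to the 36 in expression or in the base composition of their promoters. The 11 are Orc1, Cdt1, Mcm3, Mcm5, Mcm6, Mcm7, Pola1, Pole2, Rfc3, Lig1 and E2f2. The CCAAT box, on either strand, stood in 22 of the 36 (61.1%), against 41.1% of all genes. The motif of the factor NRF1, GCGCATGCGC, stood in none of the 36, against 1.07% of all genes. That share is too low for its absence from 36 genes to be read as a difference. In WT hippocampus over WT cortex the median log2 fold change was -4.13 (-5.25 to -2.80) over the 11 genes with the E2F motif. It was -3.33 (-6.89 to -0.56) over the 25 with a window and no match, so the first range lay within the second. In WT MGE over WT cortex the medians were 0.65 over the 11 and 0.47 over the 25. In cortex HET over cortex WT they were 0.44 and 0.41. Matches are a description of letters in these windows, and a window without one says nothing about binding.

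Promoters are shown for a licensing gene, helicase subunits, a polymerase and a clamp loader subunit with the motif, and for Rfc1 and Rpa1, which had no match and which, after Ccne1, differed least between WT hippocampus and either embryonic tissue. Tk1, Chaf1b, Mcm10 and Rrm2, among the genes that fell most, had no match either and are not shown. Each run is the 250 bases upstream of the RefSeq start, 5′ to 3′ on the strand of the gene, with motif letters in capitals. The positions are Orc1 chr4:108579204-108579453, plus strand; Mcm5 chr8:75109259-75109508, plus strand; Mcm6 chr1:128359706-128359955, minus strand; Pola1 chrX:93632156-93632405, minus strand; Rfc3 chr5:151651209-151651458, minus strand; Rfc1 chr5:65335640-65335889, minus strand; and Rpa1 chr11:75348384-75348633, minus strand. In Mcm5, and at the first site of Mcm6, a pair of matches on opposite strands overlaps and is printed as 1 run of capitals. GENCODE starts lie 60, 41 and 59 bases further downstream for Mcm5, Mcm6 and Rpa1, at the same base for Pola1, and at -31, -34 and -31 relative to the RefSeq start for Orc1, Rfc3 and Rfc1. The matches of Orc1 and Rfc3, whose first bases are at -27 and -10, therefore lie downstream of the GENCODE start.
Orc1: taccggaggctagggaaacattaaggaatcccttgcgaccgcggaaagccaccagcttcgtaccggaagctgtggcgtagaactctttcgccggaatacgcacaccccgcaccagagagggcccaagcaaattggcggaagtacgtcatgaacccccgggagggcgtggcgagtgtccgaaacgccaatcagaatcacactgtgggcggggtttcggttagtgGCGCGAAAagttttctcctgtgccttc
Mcm5: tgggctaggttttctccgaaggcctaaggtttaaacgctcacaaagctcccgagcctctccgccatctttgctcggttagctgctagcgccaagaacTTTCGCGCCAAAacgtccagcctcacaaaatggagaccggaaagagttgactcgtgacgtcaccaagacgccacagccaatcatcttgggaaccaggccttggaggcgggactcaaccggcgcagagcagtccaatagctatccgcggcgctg
Mcm6: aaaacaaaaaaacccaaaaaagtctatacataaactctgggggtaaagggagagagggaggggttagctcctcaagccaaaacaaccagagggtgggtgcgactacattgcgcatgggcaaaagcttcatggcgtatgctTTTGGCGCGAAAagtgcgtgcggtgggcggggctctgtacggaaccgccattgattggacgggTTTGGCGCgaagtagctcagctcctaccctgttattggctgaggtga
Pola1: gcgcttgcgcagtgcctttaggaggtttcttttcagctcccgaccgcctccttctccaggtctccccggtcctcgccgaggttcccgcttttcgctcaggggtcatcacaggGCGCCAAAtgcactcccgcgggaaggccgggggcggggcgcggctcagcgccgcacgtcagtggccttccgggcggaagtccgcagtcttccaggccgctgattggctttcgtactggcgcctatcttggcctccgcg
Rfc3: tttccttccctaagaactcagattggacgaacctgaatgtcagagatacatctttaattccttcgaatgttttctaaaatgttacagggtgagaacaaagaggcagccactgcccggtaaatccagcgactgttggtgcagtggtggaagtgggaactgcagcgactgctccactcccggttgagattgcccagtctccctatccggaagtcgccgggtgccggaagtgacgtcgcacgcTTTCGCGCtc
Rfc1: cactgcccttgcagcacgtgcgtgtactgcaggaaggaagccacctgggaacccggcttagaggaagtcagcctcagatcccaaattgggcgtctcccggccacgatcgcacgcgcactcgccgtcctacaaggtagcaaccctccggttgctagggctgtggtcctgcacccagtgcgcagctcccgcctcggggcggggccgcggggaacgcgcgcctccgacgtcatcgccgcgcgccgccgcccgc
Rpa1: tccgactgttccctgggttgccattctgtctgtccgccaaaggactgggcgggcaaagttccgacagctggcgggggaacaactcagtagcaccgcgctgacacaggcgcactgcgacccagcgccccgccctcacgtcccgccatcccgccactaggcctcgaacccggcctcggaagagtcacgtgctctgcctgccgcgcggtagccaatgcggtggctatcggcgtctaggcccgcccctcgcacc

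In WT mice, every one of the 45 genes was lower in P45 hippocampus than in E13.5 cortex. The median gene stood at 8.44% of its cortex level, and the range ran from 0.812% (Tk1) to 64.8% (Ccne1). Of the 45, 5 were below 2% of the cortex level, 20 lay between 2 and 10%, and 20 were at 10% or more. A gene was called where its adjusted p (Benjamini-Hochberg over all genes tested, edgeR's quasi-likelihood test) was under 0.05. All 45 were called lower, while of the 15688 genes tested 80.9% were called in either direction and 40.7% were called lower. Tissue and age differ together here, and in bulk tissue fewer cells in cycle and less RNA per cell cannot be told apart.

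**Figure D1:**
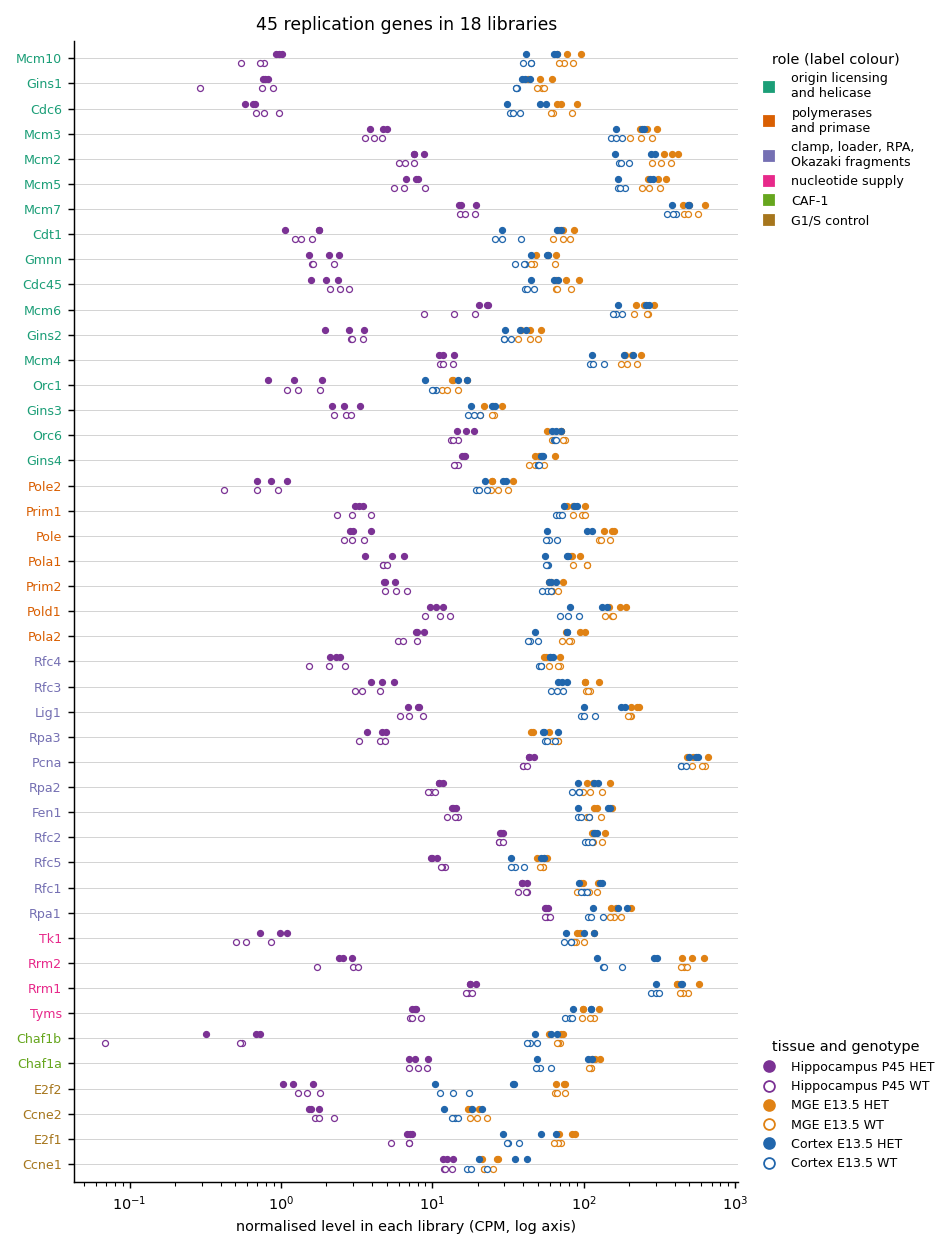
Normalised level (CPM, log axis) of each of the 45 genes in each of the 18 libraries, with 3 points per group, filled for HET and open for WT, and gene labels coloured by role. Hippocampus points lie left of all cortex and MGE points in each row, and come closest in the row of Ccne1, with 13.6 CPM in the highest hippocampus library and 17.04 CPM in the lowest cortex library.

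Among the licensing factors, Cdc6, which brings the helicase to origins, had 0.684, 0.779 and 0.974 CPM in the 3 WT hippocampus libraries, against 32.8, 37.9 and 34.2 CPM in the 3 WT cortex libraries. The groups were far apart, with a log2 fold change of -5.35 ± 0.17 (adjusted p = 3.91e-11), the error being the standard error (SE). Cdt1, its partner in loading, had 1.23, 1.36 and 1.6 CPM in hippocampus, against 26.1, 38.3 and 28.8 CPM in cortex, a log2 fold change of -4.41 ± 0.19 (adjusted p = 8.26e-10). The inhibitor geminin was at -4.35 ± 0.18 (adjusted p = 3.47e-10). The origin-binding subunits fell less: Orc1 had 1.3, 1.82 and 1.1 CPM in hippocampus, against 10.6, 10.1 and 9.96 CPM in cortex, at -2.80 ± 0.20 (adjusted p = 4.25e-08), and Orc6 had 14.7, 13.3 and 13.6 CPM in hippocampus, against 63.8, 64.5 and 66.04 CPM in cortex, at -2.16 ± 0.09 (adjusted p = 3.47e-10). Orc6 thus kept 21.4% of its cortex level, where Cdc6 kept 2.33%.

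The 6 subunits of the Mcm2 to Mcm7 ring did not fall by equal amounts. Mcm5 had 5.61, 6.52 and 8.99 CPM in WT hippocampus, against 169, 188 and 175 CPM in WT cortex, a log2 fold change of -4.59 ± 0.16 (adjusted p = 3.16e-10). Mcm3 fell most within the ring, at -5.25 ± 0.14 (adjusted p = 1.55e-11), and Mcm4 least, at -3.24 ± 0.12 (adjusted p = 1.34e-10), with Mcm2 at -4.70, Mcm7 at -4.45 and Mcm6 at -3.52. Mcm6 varied between WT hippocampus libraries, with 8.82, 13.8 and 19.1 CPM. Mcm10, which assists in starting the helicase, fell further than any ring subunit. It had 0.547, 0.779 and 0.723 CPM in hippocampus, against 39.9, 44.9 and 44.8 CPM in cortex, at -5.91 ± 0.14 (adjusted p = 4.21e-12).

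GINS, the complex of Gins1 to Gins4 that joins the ring, was more uneven than the ring. Gins1 had 0.752, 0.292 and 0.88 CPM in WT hippocampus, against 35.7, 36.4 and 35.6 CPM in WT cortex, at -5.74 ± 0.20 (adjusted p = 9.98e-11). Gins4 had 14.1, 14.7 and 13.9 CPM in hippocampus, against 49.6, 49.996 and 50.5 CPM in cortex, at -1.75 ± 0.09 (adjusted p = 1.94e-09). Thus Gins4 kept 28.5% of its cortex level and Gins1 1.79%, although the proteins work in 1 complex. Gins2 and Gins3 lay between them, at -3.24 and -2.79, and Cdc45, the last part of the active helicase, was at -4.08. Per kilobase of merged exon length, Gins4 stood at 10.6 ± 0.317 CPM per kb in WT hippocampus, against 0.423 ± 0.204 for Gins1, 0.761 ± 0.079 for Gins2 and 0.968 ± 0.129 for Gins3 (SD, n = 3 libraries). The merged length takes in all annotated exons of a gene and can exceed that of its transcripts, so these values also depend on the annotation.

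All 7 polymerase and primase genes were called lower in WT hippocampus than in WT cortex, with log2 fold changes of -4.86 to -2.70 and a median of -3.51. Pola1, the catalytic subunit of polymerase alpha, had 4.75, 4.74 and 5.0 CPM in hippocampus, against 57.8, 57.5 and 56.5 CPM in cortex, at -3.51 ± 0.10 (adjusted p = 1.81e-11). Pole, which copies the leading strand, was at -4.27 and its partner Pole2 at -4.86. Pold1, which copies the lagging strand, fell less, at -2.80, and the primase subunits Prim1 and Prim2 were at -4.43 and -3.23.

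The clamp loader and the single-strand binding protein RPA also held subunits that fell by different amounts. Rfc4 and Rfc3, small subunits of the loader, were at -4.56 and -4.13 in WT hippocampus against WT cortex, while Rfc2 was at -1.86, Rfc5 at -1.56 and the large subunit Rfc1 at -1.26. Rfc4 had 1.54, 2.08 and 2.64 CPM in hippocampus, against 50.5, 52.2 and 52.2 CPM in cortex. Rfc1 had 42.4, 36.6 and 41.5 CPM in hippocampus, against 99.9, 106 and 95.7 CPM in cortex. Both pairs of groups were apart, but Rfc1 kept 40.01% of its cortex level and Rfc4 4.04%. In RPA, the large subunit Rpa1 had 57.1, 55.9 and 59.9 CPM in hippocampus, against 107, 134 and 112 CPM in cortex, at -0.97 ± 0.09 (adjusted p = 7.09e-07). Its partners fell further, Rpa2 being at -3.13 ± 0.11 (adjusted p = 8.18e-11) and Rpa3 at -3.74 ± 0.13 (adjusted p = 6.2e-11).

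Pcna, the sliding clamp, had the highest level of the 45 genes per kilobase of merged exon length in every group. It had 39.7, 39.9 and 42.6 CPM in WT hippocampus, against 438, 437 and 472 CPM in WT cortex, a log2 fold change of -3.40 ± 0.09 (adjusted p = 6.95e-12). Its level in hippocampus, 16.97 ± 0.662 CPM per kb, was followed by Gins4 at 10.6 ± 0.317 and Rpa1 at 10.3 ± 0.372, the last pair within 1 SD of each other. In WT cortex, by contrast, Mcm7 at 87.1 ± 5.87 and Rrm2 at 53.9 ± 9.3 CPM per kb followed Pcna at 187 ± 8.2. Merged exon lengths ran from 1.136 kb (Rpa3) to 11.16 kb (Pole), so the order of genes per kilobase also depends on the annotation. Of the genes that finish Okazaki fragments, the ligase Lig1 was at -3.79 and the nuclease Fen1 at -2.76.

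Of the 4 genes of nucleotide supply, Tk1 and Rrm2 were among the genes that fell most. Tk1, thymidine kinase, had 0.855, 0.584 and 0.503 CPM in WT hippocampus, against 73.7, 82.6 and 82.9 CPM in WT cortex, at -6.89 ± 0.14 (adjusted p = 1.99e-12), the largest change of the 45. Rrm2, the S-phase subunit of ribonucleotide reductase, had 1.74, 2.99 and 3.24 CPM in hippocampus, against 134, 179 and 136 CPM in cortex, at -5.74 ± 0.19 (adjusted p = 2.54e-10). Its partner Rrm1 fell less, at -4.04 ± 0.08 (adjusted p = 1.73e-12), and Tyms, thymidylate synthase, was at -3.33 ± 0.10 (adjusted p = 2.22e-11). Rrm2b, the subunit that pairs with Rrm1 outside S phase, moved the other way and was called higher in hippocampus, at 1.27 ± 0.10 (adjusted p = 1.08e-07).

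CAF-1 deposits histones behind the fork, and its large subunits fell by different amounts. Chaf1b had 0.0684, 0.552 and 0.534 CPM in WT hippocampus, against 44.2, 49.1 and 42.5 CPM in WT cortex, at -6.78 ± 0.25 (adjusted p = 4.04e-10). Chaf1a, which shares exon sequence with Ubxn6, had 7.01, 8.02 and 9.18 CPM in hippocampus, against 51.5, 61.01 and 48.6 CPM in cortex, at -2.67 ± 0.11 (adjusted p = 3.07e-10). Among the regulators of entry into S phase, Ccne1 changed least of all 45 genes, with 13.47, 12.04 and 12.1 CPM in hippocampus, against 17.04, 22.9 and 18.1 CPM in cortex, at -0.56 ± 0.12 (adjusted p = 0.00115). The second cyclin E gene, Ccne2, was at -2.82 ± 0.16 (adjusted p = 4.67e-09), and E2f1 and E2f2 were at -2.31 ± 0.12 (adjusted p = 2.18e-09) and -3.14 ± 0.18 (adjusted p = 7.83e-09).

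**Figure D2:**
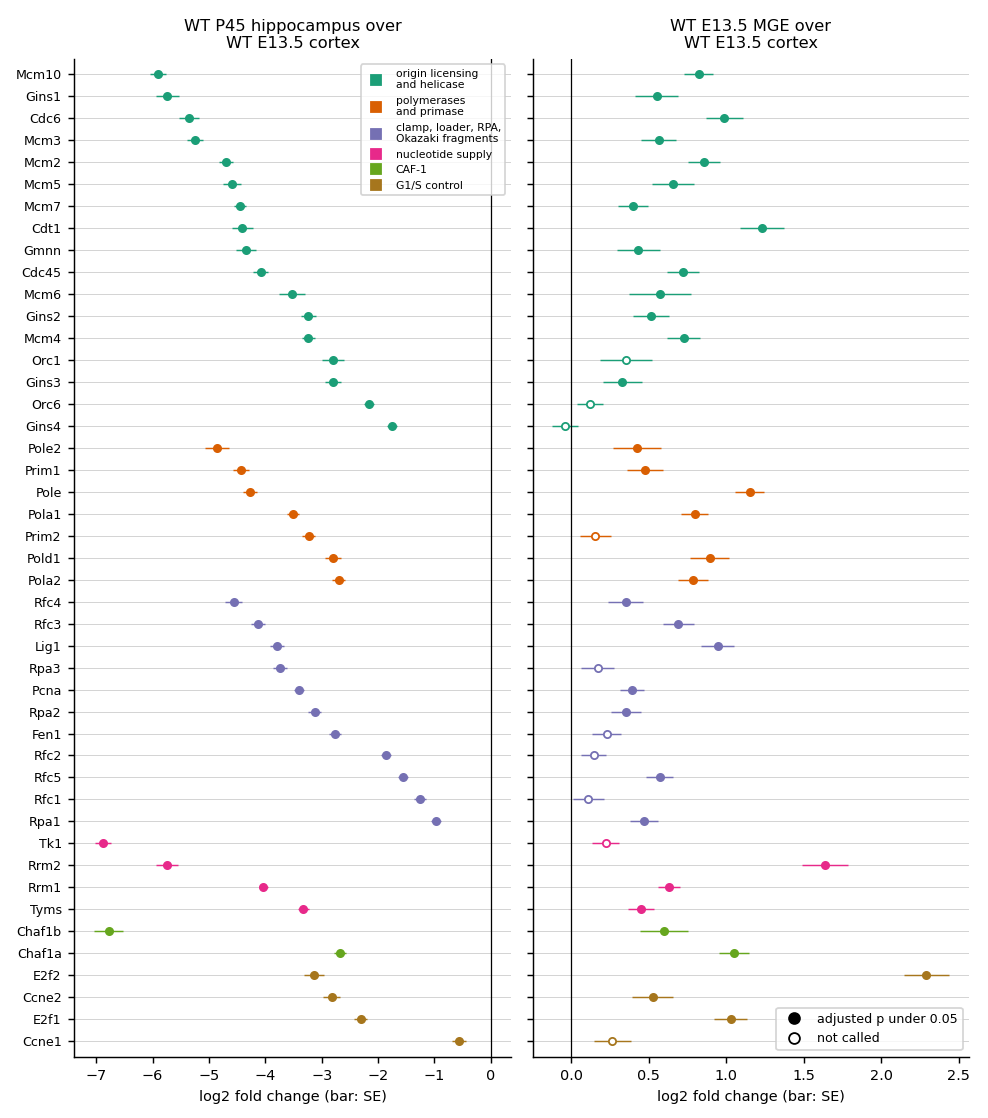
Log2 fold change and SE of each gene from edgeR over 9 WT libraries, hippocampus over cortex on the left and MGE over cortex on the right, on axes of different range, with filled points where adjusted p was under 0.05. On the left all 45 points are filled and run from -6.89 to -0.56, and on the right 35 are filled and run up to 2.29.

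Against WT MGE the 45 genes were again all called lower in WT hippocampus, with a median log2 fold change of -4.10 and 40.1% of all genes called lower (82.3% in either direction). The largest changes were those of Chaf1b at -7.38 ± 0.25 (adjusted p = 1.67e-10), Rrm2 at -7.38, Tk1 at -7.11 and Mcm10 at -6.73, and the smallest that of Ccne1 at -0.83 ± 0.12 (adjusted p = 5.02e-05). Cdc6 was at -6.34, Mcm5 at -5.25, Pola1 at -4.30, Pcna at -3.79, Tyms at -3.78, E2f1 at -3.34 and Rpa1 at -1.44. This comparison uses the same hippocampus libraries as the one with cortex. The median gene stood at 5.63% of its MGE level, between 0.564% and 54.3%.

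HET libraries gave the same comparison in other samples. HET MGE libraries all carried Y-linked transcripts and HET hippocampus libraries all carried Xist, so tissue and sex-linked transcripts cannot be told apart between them. In WT, both tissues carried Xist. All 45 genes were called lower in HET hippocampus than in HET cortex, where 40.2% of all genes were called lower (78.8% in either direction), and than in HET MGE, where 39.5% were called lower (80.1% in either direction). The median log2 fold changes were -3.73 against cortex and -4.04 against MGE. Unevenness within complexes was seen in HET as well: against HET cortex, Rpa1 was at -1.46 and Rpa3 at -3.70, Gins4 at -1.69 and Gins1 at -5.68, and Rfc1 at -1.53 and Rfc4 at -4.70. Ccne1 changed least here too, at -1.35 ± 0.23 (adjusted p = 0.000265) against HET cortex and -0.96 ± 0.23 (adjusted p = 0.00266) against HET MGE.

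Further genes of the same processes also differed between WT hippocampus and WT cortex. Of 30 other replisome genes, 29 were called lower and 1 higher, with a median log2 fold change of -1.79. The exception was Pold4, a small accessory subunit of polymerase delta, at 0.52 ± 0.15 (adjusted p = 0.00729). Dbf4, the activator of the kinase Cdc7, was at -5.73 ± 0.11 (adjusted p = 1.27e-12), while Cdc7 itself was at -1.36. The remaining origin recognition subunits fell little, with Orc2 at -1.20, Orc3 at -0.97, Orc4 at -0.71 and Orc5 at -1.17, next to Orc1 at -2.80.

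All 13 other genes of nucleotide supply and S-phase chromatin were called lower, from Top2a, a topoisomerase, at -7.14 to Dnmt1, which copies DNA methylation, at -1.71. Of 25 other regulators of G1 and S phase, 22 were called lower and 2 higher, namely Rbl2, a pocket protein of resting cells, at 0.90 ± 0.08 (adjusted p = 5.86e-07) and cyclin D1, Ccnd1, at 0.54 ± 0.22 (adjusted p = 0.0467). The E2F factors were graded: E2f7 and E2f8, repressors made in cycling cells, were at -6.62 and -4.61, whereas E2f3 and E2f4 were at -0.34 and -0.38. Among 12 polymerases, ligases and related genes that work outside replication, 8 were called lower and 3 higher, with a median of -0.57. The higher ones were Rrm2b, Polg, the mitochondrial polymerase, at 0.37 and Tk2, the mitochondrial thymidine kinase, at 0.36. Over all genes tested the median was -0.01.

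Beside these values, the summed level of 25 mitosis genes was 48.4 to 56.8 CPM in WT hippocampus, against 3196 to 3601 CPM in WT cortex, with 19 of 25 at 1 CPM or more in hippocampus. Radial glia genes summed to 824 to 851 CPM in hippocampus, against 2926 to 3491 CPM in cortex, all 11 of them above 1 CPM in both. Genes of dentate neurogenesis, many of which immature cortical neurons also express, summed to 171 to 230.2 CPM in WT hippocampus, against 2792 to 3109 CPM in WT cortex, and oligodendrocyte precursor genes to 504 to 557 CPM in WT hippocampus, against 21.0 to 34.5 CPM in WT cortex. In bulk tissue such sums do not tell which cells hold the transcripts, so they do not measure numbers of stem cells or precursors. The part of any of these lists in the replication gene levels was not tested.

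Within the E13.5 forebrain of WT embryos, replication genes were higher in the MGE than in the cortex. Of the 45 genes, 44 had a log2 fold change above 0, where 49.0% of all genes had, and 35 were called higher, none lower. Among all 15688 genes tested, 50.4% were called in either direction and 24.6% were called higher. The median change of the 45 was 0.55, against -0.01 for all genes.

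The largest differences were in an E2F gene and in nucleotide supply. E2f2 had 65.1, 74.9 and 66.7 CPM in the 3 WT MGE libraries, against 11.3, 17.5 and 13.8 CPM in the 3 WT cortex libraries, a log2 fold change of 2.29 ± 0.15 (adjusted p = 2.74e-07). Rrm2 had 463, 482 and 439 CPM in MGE, against 134, 179 and 136 CPM in cortex, at 1.63 ± 0.15 (adjusted p = 8.35e-06). In both the lowest MGE library was more than 2 times the highest cortex library. Cdt1 followed, with 73.1, 81.7 and 62.4 CPM in MGE, against 26.1, 38.3 and 28.8 CPM in cortex, at 1.23 ± 0.14 (adjusted p = 3.67e-05). Pole and Chaf1a completed the 5 largest, at 1.15 ± 0.09 (adjusted p = 1.86e-06) and 1.05 ± 0.10 (adjusted p = 4.91e-06), and E2f1 was at 1.03 ± 0.11 (adjusted p = 1.23e-05).

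Mcm5, of the helicase, and the clamp Pcna differed by less than these and were called. Mcm5 had 322, 271 and 241 CPM in WT MGE, against 169, 188 and 175 CPM in WT cortex, at 0.65 ± 0.14 (adjusted p = 0.00222). Pcna had 629.9, 605 and 519.9 CPM in MGE, against 438, 437 and 472 CPM in cortex, at 0.39 ± 0.08 (adjusted p = 0.00159). The groups did not overlap in either gene. Cdc6 was at 0.99 ± 0.12 (adjusted p = 4.03e-05), Pola1 at 0.79 ± 0.09 (adjusted p = 1.73e-05), Tyms at 0.45 ± 0.09 (adjusted p = 0.00114), Chaf1b at 0.60 ± 0.15 (adjusted p = 0.00794) and Rpa1 at 0.47 ± 0.09 (adjusted p = 0.00113). The 10 genes not called were Gins4, Rfc1, Orc6, Rfc2, Prim2, Rpa3, Tk1, Fen1, Ccne1 and Orc1, with log2 fold changes of -0.04 to 0.35. Tk1 at 0.0589 and Fen1 at 0.0596 came closest by adjusted p, and both were called with DESeq2 and with its scaling in edgeR.

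Among other genes of the pathway, 18 of 30 other replisome genes were called higher and 2 lower, and 11 of 13 genes of nucleotide supply and chromatin were called higher and 1 lower. Of 25 other regulators, 15 were called higher and 3 lower. Ccnd1 was at 2.08 ± 0.23 (adjusted p = 7.22e-05) and Cdk6 at 1.63 ± 0.22 (adjusted p = 0.000107), whereas Ccnd2 was at -0.56 ± 0.12 (adjusted p = 0.0023) and the inhibitor Cdkn1c at -1.21 ± 0.15 (adjusted p = 6.79e-05). Of the 12 genes that work outside replication, 4 were called higher and none lower. Mitosis genes summed to 5525 to 5890 CPM in WT MGE, against 3196 to 3601 CPM in WT cortex. Radial glia genes summed to 3067 to 3923 CPM in MGE, against 2926 to 3491 CPM in cortex, and neuron genes to 3502 to 4535 CPM in MGE, against 3452 to 4005 CPM in cortex, so that these groups overlapped in both lists. What share of the difference goes with any of these lists was not tested.

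In HET embryos the same comparison called 7 of the 45 genes higher in MGE and none lower, where 14.8% of all genes were called higher (33.5% in either direction). The 7 were E2f2 at 1.44 ± 0.35 (adjusted p = 0.00931), Rrm2 at 1.13 ± 0.28 (adjusted p = 0.011), Cdc6 at 0.70, Pole at 0.69, E2f1 at 0.69, Mcm2 at 0.64 and Rfc3 at 0.59. E2f1 was not called without the filter on low counts, nor without MGE HET 2, MGE HET 3 or cortex HET 2. The others named for WT were not called, with Mcm5 at 0.34, Pola1 at 0.30, Chaf1b at 0.20, Tyms at 0.06, Pcna at 0.04, Rpa1 at 0.11, Cdt1 at 0.45 and Chaf1a at 0.41. For E2f2 the 3 HET MGE libraries had 65.4, 74.1 and 75.8 CPM, against 34.1, 34.7 and 10.4 CPM in the 3 HET cortex libraries. Cortex HET 3 was far below HET 1 and HET 2 in that gene, and all 3 were below MGE. Of the 45, 40 were above 0, where 48.7% of all genes were, and the median was 0.20. Without cortex HET 1 and HET 2, an alternative added after the data were seen that leaves 1 HET cortex library, the median was 0.58. The lone library is then assumed to vary like the other groups, and as the libraries left out were the high ones, the direction of this move was set by that choice and nothing is read from it. Without MGE HET 2, 3 of the 45 were called, and without MGE HET 3, 4. The count over all genes moved as well, from 5264 with all libraries to between 3589 and 5698 with 1 library left out. Whether the excess in MGE differed between genotypes was tested as the interaction of genotype with cortex and MGE, given at the end.

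**Figure D3:**
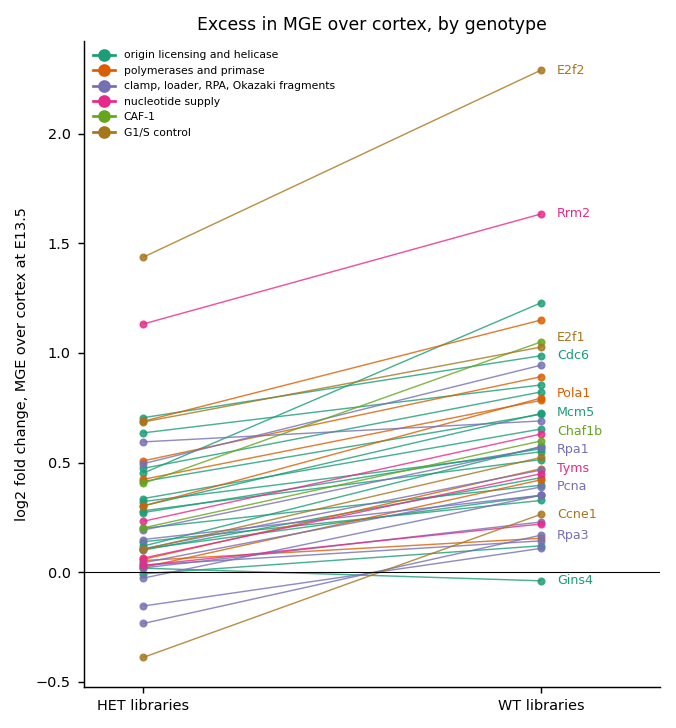
Log2 fold change of MGE over cortex at E13.5 for each of the 45 genes, from the HET libraries on the left and the WT libraries on the right, with a line joining each gene and 13 genes labelled. In 44 of 45 genes the line is higher on the right, with E2f2 at 1.44 in HET and 2.29 in WT and Ccne1 at -0.39 in HET and 0.26 in WT.

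In E13.5 cortex, fitted log2 fold changes of HET over WT were above 0 for all 45 genes (44 with DESeq2, its scaling, no filter or 1 fit of all libraries, and 43 to 45 with 1 library left out), but 2 of the 3 HET libraries were the high ones and no gene was called. Mean CPM was higher in HET than in WT for 44 of the 45, the exception being Rpa3, whose HET libraries averaged 58.7 CPM and WT libraries 58.95 CPM. The log2 fold changes ran from 0.01 (Rpa3) to 0.92 (E2f2), with a median of 0.41, against 0.01 for all genes, and 52.3% of all genes were above 0. The lowest adjusted p among the 45 was 0.578, and none of the 14757 genes tested was called (0%). DESeq2 and limma-voom called none of the 45 either, and over all genes DESeq2 called 9 and limma-voom none. At an unadjusted p under 0.05, 24 of the 45 were higher and none lower, where 5.02% of all genes were higher and 2.87% lower. The 45 genes and the other lists were chosen with earlier results of these data known. Shares over all genes are therefore set beside them as description only.

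The values by library show the split. Cdt1 had 66.99, 70.6 and 29.1 CPM in cortex HET 1, HET 2 and HET 3, against 26.1, 38.3 and 28.8 CPM in the 3 WT libraries, a log2 fold change of 0.86 ± 0.32 (adjusted p = 0.578). E2f2 had 34.1, 34.7 and 10.4 CPM in HET, against 11.3, 17.5 and 13.8 CPM in WT, at 0.92 ± 0.42 (adjusted p = 0.578). Ccne1 had 35.3, 42.5 and 20.3 CPM in HET, against 17.04, 22.9 and 18.1 CPM in WT, at 0.78 ± 0.26 (adjusted p = 0.578). In each of these, HET 1 and HET 2 were above all WT libraries, and HET 3 was within or below the WT range. The differences in the helicase and the clamp were smaller. Mcm5 had 275, 285 and 169.6 CPM in HET, against 169, 188 and 175 CPM in WT, at 0.47 ± 0.19 (adjusted p = 0.578). Pcna had 553, 565 and 496 CPM in HET, against 438, 437 and 472 CPM in WT, at 0.28 ± 0.10 (adjusted p = 0.578), and here HET 3 was also above the 3 WT libraries.

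Rrm2 had 307, 291 and 123 CPM in cortex HET, against 134, 179 and 136 CPM in cortex WT, at 0.71 ± 0.32 (adjusted p = 0.578). Cdc6 had 51.4, 56.7 and 31.3 CPM in HET, against 32.8, 37.9 and 34.2 CPM in WT, at 0.43 ± 0.21 (adjusted p = 0.578). E2f1 had 66.1, 52.5 and 29.2 CPM in HET, against 31.5, 37.6 and 31.2 CPM in WT, at 0.58 ± 0.27 (adjusted p = 0.578). HET 3 was the lowest of the 6 libraries in all 3 genes. Pola1 was at 0.32 ± 0.14 (adjusted p = 0.578), Tyms at 0.38 ± 0.13 (adjusted p = 0.578), Chaf1b at 0.39 ± 0.14 (adjusted p = 0.578) and Rpa1 at 0.46 ± 0.19 (adjusted p = 0.578). The genes closest to 0, Rpa3, Orc6 at 0.05 and Gins4 at 0.10, had HET 3 as their highest library; Rpa3 had 54.5, 53.6 and 68.04 CPM in HET, against 55.3, 57.1 and 64.4 CPM in WT.

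Over the 45 genes, the median ratio to the mean of the WT libraries was 1.44 in HET 1, 1.497 in HET 2 and 0.992 in HET 3. HET 1 and HET 2 were both above the other 4 libraries in 38 of the 45 genes, while this held for 29.6% of the 13339 genes with a mean of at least 1 CPM in cortex. HET 3 was above the WT range in 10 genes, within it in 26 and below it in 9, where 24.3% of those 13339 genes were above, 48.2% within and 27.5% below. The HET and WT groups did not overlap in 8 of the 45 genes, all higher in HET (Gins4, Rfc2, Gins1, Rfc4, Pcna, Prim1, Tyms and Gmnn), where 4.69% of all genes were apart and higher and 6.29% apart and lower. Gmnn, chosen after its values were seen as the one with the lowest unadjusted p, had 57.2, 58.3 and 44.6 CPM in HET, against 35.3, 41.1 and 40.5 CPM in WT, at 0.47 ± 0.13 (adjusted p = 0.578).

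**Figure D4:**
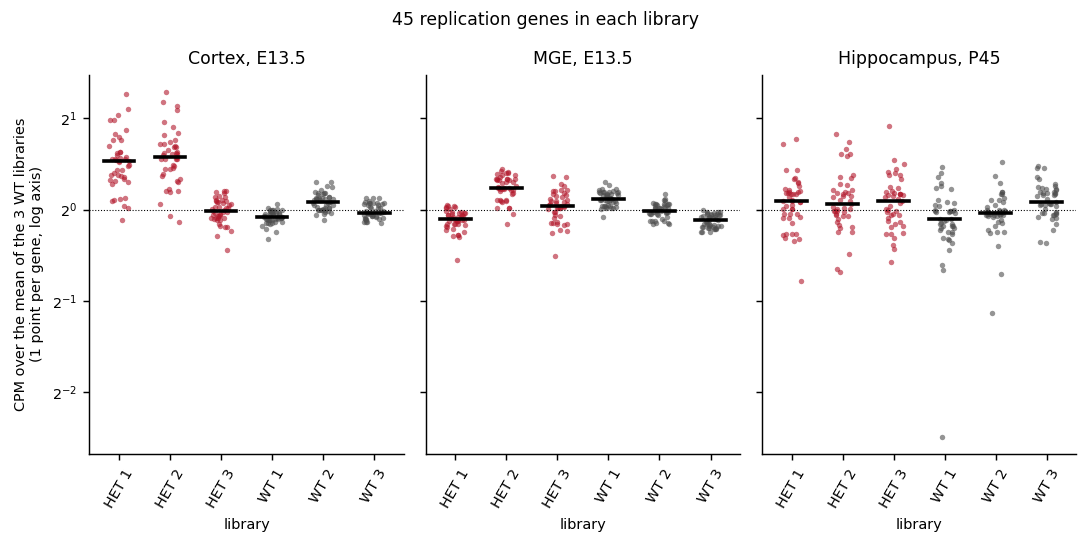
Each point is 1 of the 45 genes in 1 library, as CPM over the mean of the 3 WT libraries of that tissue (log axis), with a bar at the median. In cortex the medians are 1.44 and 1.497 in HET 1 and HET 2 and 0.992 in HET 3, in MGE HET 2 has the highest median at 1.18, and in hippocampus the 3 HET medians lie between 1.041 and 1.07.

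Leaving out HET 3 called 38 of the 45 genes, along with 4598 of all genes. Leaving out HET 1 and HET 2 together, which was added after the data were seen and leaves 1 HET library, assumed to vary like the WT libraries, called none of the 45, with 21 above 0 and a median of -0.0048. The direction of E2f2, Cdt1, Rrm2, E2f1, Cdc6, Mcm5, Pola1 and Rpa1 then turned. No other single library changed the count of 0.

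Mitosis, neuron, interneuron and red blood cell genes separated the same libraries. Summed over the 45 genes, the level was 5795, 5963 and 4067 CPM in cortex HET 1, HET 2 and HET 3, against 3828, 4294 and 4054 CPM in the 3 WT libraries. For 25 mitosis genes it was 4779.8, 4904 and 3114 CPM in HET, against 3196, 3601 and 3441 CPM in WT, all 25 at 1 CPM or more in both groups. HET 1 and HET 2 were thus the high libraries for both lists. For 12 neuron genes it was 2567, 2524 and 3898 CPM in HET, against 3452, 3546 and 4005 CPM in WT, and for 9 genes of intermediate progenitors and projection neurons 2292, 2153 and 2966 CPM in HET, against 2876, 3178 and 3375 CPM in WT. Here HET 1 and HET 2 were the lowest. For 10 genes of MGE interneurons it was 21.97, 21.4 and 69.2 CPM in HET, against 62.6, 47.4 and 76.04 CPM in WT, 7 of the 10 at 1 CPM or more in either group. For 8 red blood cell genes it was 926, 1160.3 and 375 CPM in HET, against 294, 382 and 449 CPM in WT, 4 of the 8 at 1 CPM or more in either group. The globin genes Hba-a1, Hba-a2, Hbb-bt and Hbb-bs were at 0 in every cortex library, so this sum holds only Hba-x, Hbb-y, Hbb-bh1 and Alas2. Radial glia genes summed to 3639, 3378 and 3153 CPM in HET, against 3267, 3491 and 2926 CPM in WT, so HET 1 was highest and HET 2 lay below WT 2. By the mean log2 level of the list relative to all cortex libraries, HET 1 and HET 2 were both the highest. They stood at 0.29 and 0.12, followed by WT 2 at 0.075, so the order depended on the measure. Meninges and vessel genes, all 8 at 1 CPM or more in both groups, summed to 641, 899 and 816 CPM in HET, against 749, 478 and 474 CPM in WT. Choroid plexus genes, 6 of 7 at 1 CPM or more in either group, summed to 13.7, 259 and 444 CPM in HET, against 1568, 5.94 and 1209.6 CPM in WT. Both lists overlapped between the groups, and HET 1 and HET 2 did not stand together at one end of either. The part of all these lists in the replication genes was not tested. Y-linked transcripts marked HET 1 and not HET 2.

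**Figure D5:**
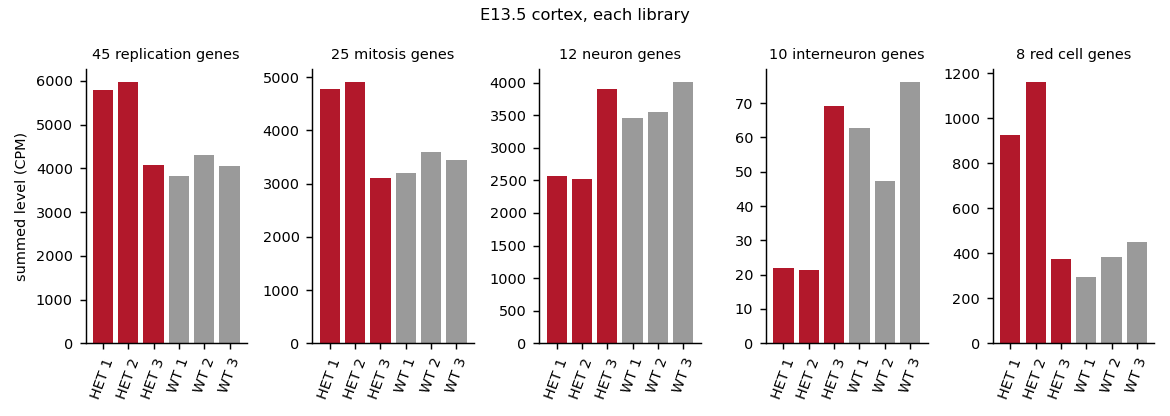
Summed level (CPM) of 5 gene lists in each of the 6 cortex libraries, HET in red and WT in grey, each panel on its own axis from 0. HET 1 and HET 2 are the highest 2 libraries for replication, mitosis and red cell genes and the lowest 2 for neuron and interneuron genes, while HET 3 lies near the WT libraries.

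Among other genes of the pathway in cortex, 26 of 30 other replisome genes, 13 of 13 genes of nucleotide supply and chromatin, 19 of 25 other regulators and 10 of 12 genes that work outside replication were above 0, and none was called. The largest in each list were Ticrr, which helps to start replication, at 0.73 ± 0.29 (adjusted p = 0.578), Uhrf1, which reads newly copied DNA, at 0.69 ± 0.28 (adjusted p = 0.578), E2f8 at 0.77 ± 0.36 (adjusted p = 0.578) and the repair polymerase Polk at 0.38 ± 0.21 (adjusted p = 0.578). The medians were 0.31, 0.41, 0.29 and 0.11 in the order of the lists.

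In E13.5 MGE, HET and WT libraries overlapped for 42 of the 45 replication genes. Of the 45, 32 were above 0 with a median log2 fold change of 0.06, where 52.1% of all genes were above 0, and none was called, where 0.0479% of all genes (7 of 14624) were called. At an unadjusted p under 0.05 there was 1 gene, lower, where 3.30% of all genes were lower and 1.21% higher. DESeq2 and limma-voom called none of the 45. The 1 gene was Rpa3, the small subunit of RPA, with 45.05, 59.2 and 46.5 CPM in the 3 HET libraries, against 67.7, 67.9 and 62.2 CPM in the 3 WT libraries. All HET values were below all WT values, at -0.40 ± 0.12 (adjusted p = 0.98). Chaf1a and Lig1 were also apart, both higher in HET, so that 2 of the 45 were apart and higher and 1 apart and lower, where 5.13% and 5.12% of all genes were.

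The largest other changes in MGE were E2f1 at 0.22 ± 0.11 (adjusted p = 0.98), Pola2 at 0.20 ± 0.12 (adjusted p = 0.98) and Mcm2 at 0.20 ± 0.12 (adjusted p = 0.98) above 0, and Pola1 at -0.19 ± 0.11 (adjusted p = 0.98) and Rfc4 at -0.14 ± 0.12 (adjusted p = 0.98) below. Pola1 lies on chromosome X, and in MGE genotype cannot be told apart from the sex-linked transcripts. Mcm5 had 266, 351 and 309 CPM in HET, against 322, 271 and 241 CPM in WT, at 0.14 ± 0.13 (adjusted p = 0.98). Pcna had 481, 661 and 530.1 CPM in HET, against 629.9, 605 and 519.9 CPM in WT, at -0.08 ± 0.13 (adjusted p = 0.982). In both, HET 2 was the highest of the 6 libraries and HET 1 lay within the WT range in Mcm5 and below it in Pcna. HET 2 was the highest in 33 of the 45 genes (73.3%), which held for 24.3% of 12949 genes. HET 2 and WT 1 were among the highest 2 libraries in 40 and 30 of the 45 genes, which held for 38.9 and 33.2% of the same genes. Without HET 2, 17 of the 45 were above 0. Rrm2 was at 0.19, Cdc6 at 0.13, Ccne1 at 0.11, Rpa1 at 0.08, Chaf1b at -0.02 and Tyms at -0.02, and Cdc6, Rpa1, Chaf1b, Tyms and Pcna changed direction when 1 library was left out.

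Summed over the 45 genes, MGE stood at 5764, 7506 and 6387 CPM in HET, against 6755, 6181 and 5697 CPM in WT. Neuron genes summed to 4524, 3544 and 4131 CPM in HET, against 3502, 3735 and 4535 CPM in WT. HET 2 and WT 1, the highest libraries of the first sum, were the lowest HET and the lowest WT library of the second, and what follows for the replication genes was not tested. None of the other replication lists had a gene called in MGE.

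In P45 hippocampus the 45 genes were low in both genotypes and none was called, where 1.07% of all genes (164 of 15283) were called. The median log2 fold change was 0.09, with 31 of 45 above 0, where 51.4% of all genes were. At an unadjusted p under 0.05, 3 genes were higher and none lower, where 6.75% of all genes were higher and 8.81% lower. DESeq2 and limma-voom called none of the 45.

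The 3 genes were Mcm6, Orc6 and Pcna. Mcm6 had 22.9, 23.3 and 20.4 CPM in the 3 HET libraries, against 8.82, 13.8 and 19.1 CPM in the 3 WT libraries, at 0.68 ± 0.25 (adjusted p = 0.284). The groups did not overlap, WT 3 lay close to HET 3, and without WT 3 Mcm6 was called (adjusted p = 0.0384; 0.0384 to 0.597 over all alternatives). Orc6 had 14.7, 16.7 and 18.9 CPM in HET, against 14.7, 13.3 and 13.6 CPM in WT, at 0.28 ± 0.11 (adjusted p = 0.245). Pcna had 43.6, 43.7 and 46.8 CPM in HET, against 39.7, 39.9 and 42.6 CPM in WT, at 0.14 ± 0.06 (adjusted p = 0.313). HET 1 and WT 1 met at the same level in Orc6, while in Pcna the groups did not overlap. In all, 6 of the 45 were apart and higher and 2 apart and lower in HET, where 9.11% and 11.7% of all genes were.

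The largest changes below 0 among genes at 1 CPM or more were Cdc45 at -0.31 ± 0.24 (adjusted p = 0.571), E2f2 at -0.24 ± 0.28 (adjusted p = 0.733) and Ccne2 at -0.22 ± 0.24 (adjusted p = 0.712), and above 0 Rfc3 at 0.37 ± 0.20 (adjusted p = 0.406) and Pola2 at 0.28 ± 0.14 (adjusted p = 0.359). Genes under 1 CPM had wide errors: Chaf1b had 0.32, 0.682 and 0.725 CPM in HET, against 0.0684, 0.552 and 0.534 CPM in WT, at 0.57 ± 0.58 (adjusted p = 0.684). Cdc6 had 0.676, 0.58 and 0.656 CPM in HET, against 0.684, 0.779 and 0.974 CPM in WT, at -0.35 ± 0.34 (adjusted p = 0.67). Mcm5, Pola1, Tyms, Rrm2, Ccne1, E2f1 and Rpa1 lay between -0.01 and 0.14. Beside these, mitosis genes summed to 57.1 to 59.02 CPM in HET hippocampus, against 48.4 to 56.8 CPM in WT hippocampus, and oligodendrocyte precursor genes to 450.1 to 581 CPM in HET, against 504 to 557 CPM in WT, whose part was not tested. Outside the 45, Ccnd1 was called lower in HET hippocampus, at -0.37 ± 0.07 (adjusted p = 0.0307), the only call among 80 further replication and cell cycle genes and counterparts in the 3 genotype comparisons.

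Whether the genotype effect differed between tissues was tested as an interaction over all 18 libraries. None of the 45 genes passed in any of the 3 tests, each of 16125 genes. For cortex minus MGE, 0% of all genes were called, 44 of the 45 were above 0 with a median of 0.35, where 51.5% of all genes were above 0, and the lowest adjusted p was 0.710. For cortex minus hippocampus, 0.0124% of all genes were called, 36 of the 45 were above 0 with a median of 0.31, where 48.7% of all genes were above 0, and the lowest adjusted p was 0.329. For MGE minus hippocampus, 0.00620% were called and 22 of the 45 were above 0, where 49.8% of all genes were. At an unadjusted p under 0.05, 8 of the 45 were above 0 and none below for cortex minus MGE, where 4.06% of all genes were above and 2.95% below. For cortex minus hippocampus 7 were above and none below, where 7.30% of all genes were above and 5.54% below. For MGE minus hippocampus 3 were below and none above, where 4.12% of all genes were below and 3.24% above. No other tool was run on the interactions.

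Without cortex HET 3, 10 of the 45 genes passed for cortex minus MGE and 17 for cortex minus hippocampus. Leaving out any other single library called none of the 45. Over all genes, leaving out 1 library called up to 1044 for cortex minus MGE and up to 2791 for cortex minus hippocampus. With all libraries kept, 16125 genes were tested. Calls thus rose over all genes and not only among the 45. With all libraries, the largest for cortex minus MGE, picked after the values were seen, were E2f2 at 0.85 ± 0.42 (adjusted p = 0.727), Cdt1 at 0.78 ± 0.35 (adjusted p = 0.71) and Ccne1 at 0.65 ± 0.27 (adjusted p = 0.71). There Mcm5 was at 0.32, Cdc6 at 0.28, Pola1 at 0.49, Pcna at 0.35, Tyms at 0.39, Rrm2 at 0.50, Chaf1b at 0.40, E2f1 at 0.34 and Rpa1 at 0.36. The value of the X-linked Pola1 rests in part on MGE, where genotype and sex-linked transcripts go together. For cortex minus hippocampus Ccne1 was at 0.75 ± 0.28 (adjusted p = 0.334), Cdc6 at 0.77, Mcm5 at 0.37 and Pcna at 0.13. For MGE minus hippocampus Rpa3 was at -0.47 ± 0.22 (adjusted p = 0.661) and Mcm6 at -0.64 ± 0.30 (adjusted p = 0.669).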

How the data were processed

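RNA-seq libraries from poly(A) RNA of Chd2+/- (HET) and wild-type (WT) mice gave raw read counts per gene, used as deposited. Per the submitters' processing notes, the authors used FastQC, Trimmomatic, TopHat2 2.1.1, SAMtools and DESeq2 with mm10 before these counts were deposited. How reads were counted (program, annotation, strand) is not given in the sources used here. Members and lists, the 45 genes included, were chosen with earlier results of these data known.

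Depth is given above as the range over the libraries. Genes were filtered with filterByExpr (minimum count 10, minimum total 15), which all 45 passed in each tissue, scaled by TMM and tested with edgeR 4.0.16 in R 4.3.3 (quasi-likelihood test, Benjamini-Hochberg over all genes tested). Genotype comparisons used the 6 libraries of a tissue, tissue comparisons the 9 libraries of a genotype, and interactions all 18. The SE is the log2 fold change divided by the square root of F. CPM per kb divides by merged exon length (GENCODE M21). The rule for named genes took the 5 largest called changes per direction in tissue comparisons, the 3 largest per direction in genotype comparisons among genes at 1 CPM or more, and 10 genes fixed by role; other subunits are named to complete their complex. On simulated counts with known changes the test missed part of them, the smaller ones in cortex HET against WT most often. A gene not called may therefore still differ.

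Alternatives were DESeq2's scaling, DESeq2 1.42.0, limma 3.58.1 (voom, genotype comparisons), no filter, 1 fit of all libraries, a replicate block, leaving out each library and, added after the data were seen, leaving out cortex HET 1 and HET 2. The labels' replicate numbers do not pair libraries.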

Additional observations from a re-analysis of the deposited data

How the results depend on the processing

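In the 12 comparisons the counts of replication genes called stayed within 1.5 times under DESeq2's scaling, no filter and DESeq2 or limma-voom where these were run. The exceptions were HET MGE over cortex, where 1 fit of all 18 libraries called 12 genes in place of 7, and the settings that leave out libraries. Leaving out both cortex HET 1 and HET 2 leaves a lone HET cortex library, assumed to vary like the other groups, so no count is read from it there. With 1 library left out, the replication genes called ranged from 0 to 38 for HET against WT in cortex, 0 to 1 in hippocampus, 3 to 9 for HET MGE over cortex, 0 to 10 for the interaction of cortex minus MGE and 0 to 17 for cortex minus hippocampus.

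Counts over all genes moved more. HET against WT in MGE called 32 genes with DESeq2 in place of 7. In cortex, in place of 0, it called 1 gene without the filter, 9 with DESeq2, 4 in 1 fit of all libraries and 1 without cortex HET 1 and HET 2. In hippocampus, in place of 164, it called 291 without the filter, 425 with DESeq2, 11 in 1 fit of all libraries and 80 with the replicate block. Among the replication genes named, the block ended 1 call, that of E2f1 in HET MGE over cortex (edgeR adjusted p = 0.0577), and same-numbered libraries did not deviate together (correlations of -0.23 to 0.12). With 1 library left out, all genes called ranged from 5 to 27 in MGE, 0 to 4598 in cortex, 23 to 292 in hippocampus, 0 to 1044 for cortex minus MGE, 1 to 2791 for cortex minus hippocampus and 1 to 12 for MGE minus hippocampus. For HET MGE over cortex they ranged from 3589 to 5698.

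Directions turned as follows, as log2 fold changes; the causes were not tested. Without cortex HET 1 and HET 2, HET against WT in cortex gave E2f2 -0.43, Rrm2 -0.28, E2f1 -0.19, Cdc6 -0.15, Cdt1 -0.089, Mcm5 -0.059, Pola1 -0.032 and Rpa1 -0.020, and HET MGE over cortex gave Ccne1 0.30. In hippocampus, limma-voom gave Rrm2 0.033, and the replicate block gave Rrm2 0.030 and Tyms 0.0014. For MGE minus hippocampus, no filter gave Tyms 0.0012. Leaving out 1 library, HET against WT ranged in MGE over Cdc6 -0.018 to 0.29, Pcna -0.22 to 0.018, Tyms -0.15 to 0.048, Chaf1b -0.080 to 0.071 and Rpa1 -0.053 to 0.18, and in hippocampus over Mcm5 -0.037 to 0.30, Pola1 -0.092 to 0.32, Tyms -0.046 to 0.069, Rrm2 -0.22 to 0.15, Ccne1 -0.043 to 0.073 and Rpa1 -0.035 to 0.0048. MGE over cortex ranged in WT over Gins4 -0.13 to 0.021 and Rfc1 -9.1e-05 to 0.21, and in HET over Pcna -0.10 to 0.15, Tyms -0.070 to 0.13 and Rpa1 -0.071 to 0.27. Interactions ranged for cortex minus hippocampus over Pola1 -0.0085 to 0.38 and Chaf1b -0.52 to 0.29, and for MGE minus hippocampus over Mcm5 -0.17 to 0.19, Tyms -0.15 to 0.054 and Rpa1 -0.039 to 0.20. Depth limits mainly the 6 genes under 1 CPM in hippocampus in at least 1 genotype.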
